A study of Arabidopsis thaliana with 8 samples.

Results

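Transcripts of cytosolic ribosomal protein genes were followed in Arabidopsis seedlings. The set was a list of 60 nuclear genes for proteins of the large (60S) and small (40S) subunit, and a gene counted as measured where the array annotation assigned a probe set to it alone. This left 49 of 60 genes, 34 of the 60S and 15 of the 40S subunit, each with 1 probe set, out of 22810 probe sets in the table. The other 11 genes encode L5 (AT3G25520, AT5G39740), L6 (AT1G74060, AT1G74050), L8 (AT2G18020, AT4G36130), L18 (AT3G05590), L19 (AT1G02780), L27a (AT1G70600), S3 (AT2G31610) and S10 (AT5G41520), and were not analysed here. Which protein a gene encodes follows the Arabidopsis nomenclature of ribosomal proteins, because the array annotation and the gene table give only locus tags for the 49 measured genes.

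The study compared hormone-related mutants with wild types, with no treatment, in seedlings that were 7 days old. Total RNA was hybridised to 8 arrays, 2 for each of 4 groups. A gibberellin-deficient mutant carried a leaky allele on the Ler background, and a de-etiolated mutant was of Col background. The wild types were Wassilewskija (Ws) and Ler-0 (Ler). The labels did not name the mutated genes. Wild-type Col was not analysed here, so in the de-etiolated mutant the mutation and the accession cannot be told apart. Gibberellins promote elongation of the stem and germination of the seed, and mutants of the de-etiolated class show the habit of light-grown seedlings in darkness.

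Each cytosolic ribosome holds 1 copy of nearly every ribosomal protein. In Arabidopsis each of these proteins is encoded by a small family of similar genes (paralogs), so a cell can draw the same subunit from several transcripts. Ribosomal protein genes are most active where cells grow and divide, and their products are assembled with ribosomal RNA in the nucleolus. Loss of a single such gene in Arabidopsis commonly gives narrow, pointed leaves and slow growth.

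Values are the authors' signal intensities, in array units. Changes are differences of group means of log2(signal + 2.96) from 1 limma fit over 13648 probe sets, with their standard error (SE). A change was called at an adjusted p below 0.05 (Benjamini-Hochberg, over all probe sets tested). The labels do not say whether replicate arrays came from separate cultures, so the p-values measure only the spread between these samples.

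All arrays had a 2%-trimmed mean signal of 100.01 to within rounding, and the members lay near the top of the range. On the gibberellin-deficient arrays the 49 members had a median signal of 1505 and 1551, and on the de-etiolated arrays 1350 and 1355. The Ws arrays gave 1464 and 1569, and the Ler arrays 1365 and 1520. The median of all probe sets was 34.9 to 38.4, and 41 or 42 members lay in the top 5% of every array. The brightest probe set of the array was a member on 2 arrays: AT2G41840 (S2) at 2369 on gibberellin-deficient replicate 2, and AT3G04840 (S3a) at 2243 on Ler replicate 1. Whether signals so close to an array's highest value were compressed was not tested. For the older actin control, the ratio of 3′ to 5′ signal was 3.84 and 4.93 on the gibberellin-deficient and 5.22 and 4.77 on the Ler arrays, against 1.90 to 2.35 on those of the de-etiolated mutant and Ws. Its part in the results was not tested.

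As a group, the ribosomal protein genes had small median changes. In the gibberellin-deficient mutant against Ler the median change of the 49 members was 0.12 on the log2 scale, and 40 of them lay above 0. The median of all 13648 probe sets was 0.01 there, but that of the 619 probe sets with a mean signal above 1000 was 0.11. For the de-etiolated mutant, set against Ws and Ler averaged, the members' median was -0.09 and 32 of 49 lay below 0, beside 0.02 for all probe sets and 0.06 for the bright ones. In Ws against Ler it was 0.16 with 41 of 49 above 0, beside -0.02 for all probe sets and again 0.16 for the bright ones. When the arrays were quantile normalised, the members' median was 0.03 in the gibberellin-deficient mutant, -0.15 in the de-etiolated mutant and 0.01 in Ws against Ler.

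**Figure D1:**
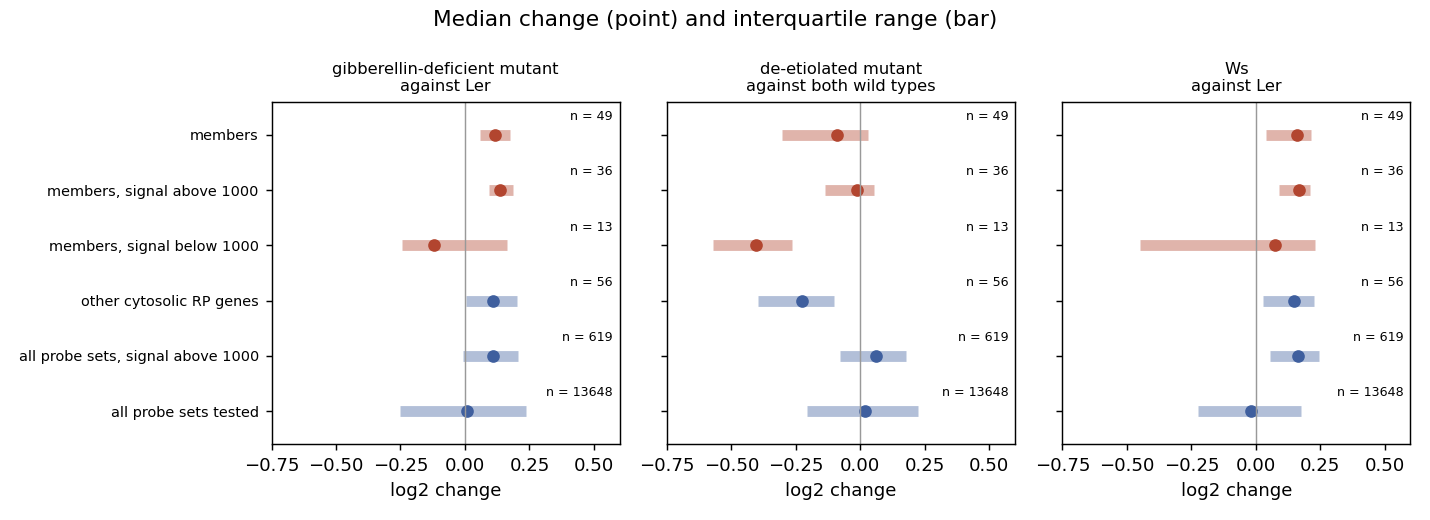
Median log2 change (point) and interquartile range (bar) for the 49 members, the members split at a mean signal of 1000, other cytosolic ribosomal protein genes, and all probe sets, in the 3 comparisons; n is the number of genes or probe sets. The 13 members below a signal of 1000 have a median of -0.41 in the de-etiolated mutant, where the 36 brighter members have -0.01. AT2G40010 (P0), which had to differ as said below, is among the 13.

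The 2 arrays of a group also differed. On the log2 scale, the median size of a member's difference between them was 0.10 for the gibberellin-deficient, 0.16 for the de-etiolated, 0.15 for the Ws and 0.17 for the Ler arrays. The 2 de-etiolated arrays stood furthest apart for the P0 gene AT3G09200, with signals of 1494 and 2209, and for the L15 gene AT4G17390 the signals were 1442 and 2122. The widest gap of all was that of the dim S8 gene AT5G59240 in Ler, with 33.1 and 76.1.

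**Figure D2:**
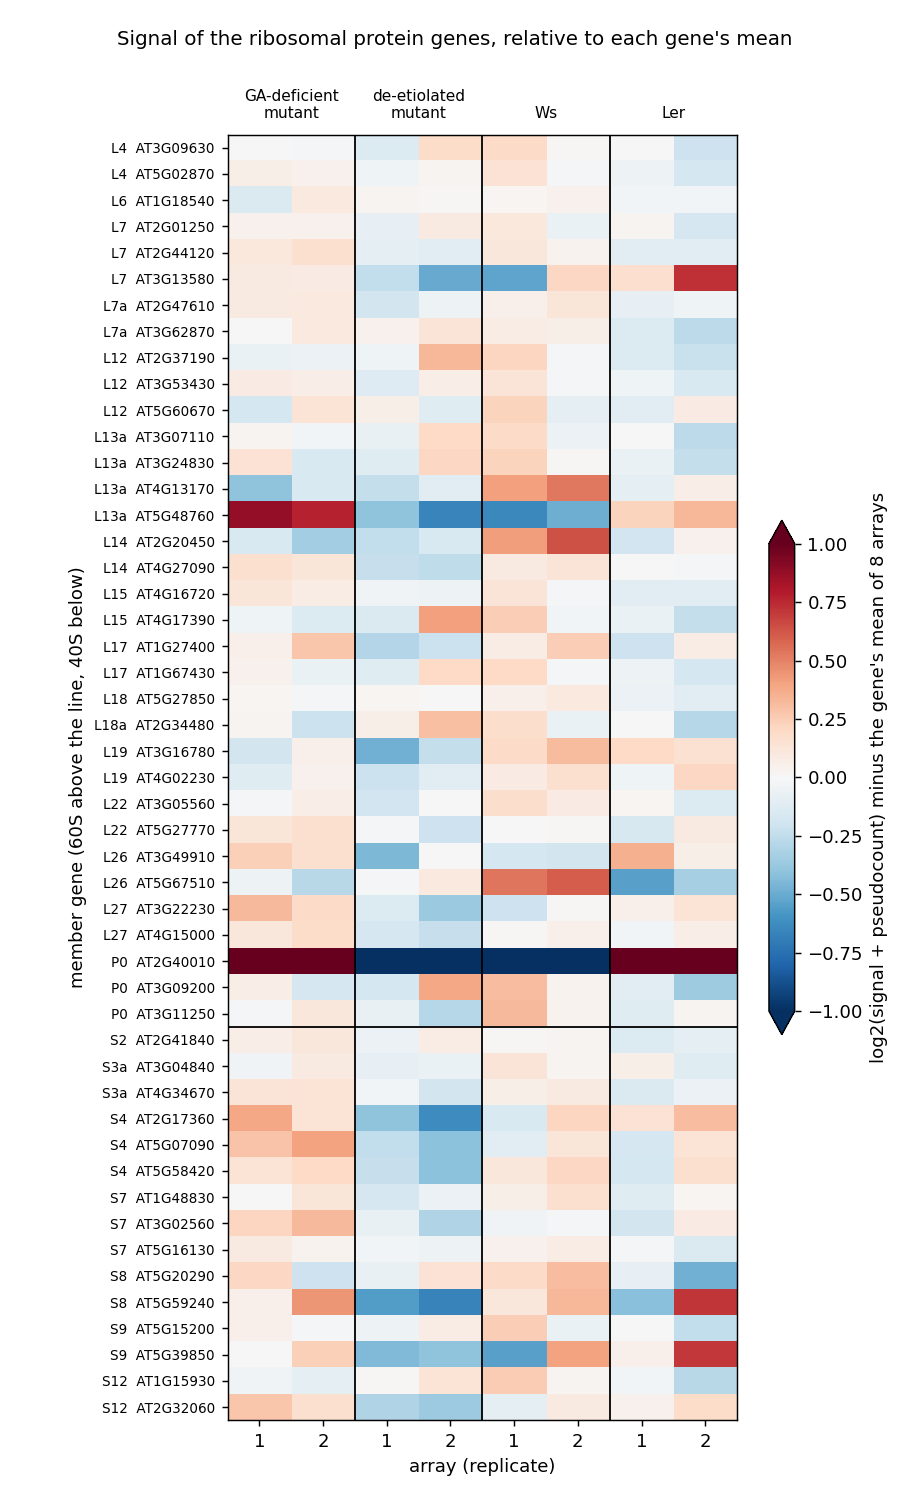
Heat map of log2(signal + 2.96) of the 49 members (rows, by subunit and protein) on 8 arrays (columns), each minus the gene's mean; colours end at 1 and -1. Most rows are pale, while the P0 gene AT2G40010 is high on the 4 arrays of the gibberellin-deficient mutant and Ler and low on the 4 arrays of the de-etiolated mutant and Ws.

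The gibberellin-deficient mutant and Ler share their background, so this comparison asks which ribosomal protein transcripts differ when gibberellin synthesis is impaired. Of the 49 members 1 rose and 0 fell in the limma fit, or 2.04%, where 10.7% of all probe sets were called (4.55% higher and 6.18% lower). At an unadjusted p below 0.05, 4 members were higher and 0 lower, where 12% of all probe sets were higher and 13.9% lower. The gene that rose was AT5G48760, a paralog for L13a, a protein of the large subunit that in mammals also takes part in a complex that silences translation. Its signal was 675 and 626 in the mutant, against 426 and 460 in Ler. Both mutant arrays lay above both Ler arrays, and the change was 0.55 (SE 0.14, adjusted p = 0.0271), or 1.46-fold. The call was lost when any 1 of these 4 arrays was left out (adjusted p = 0.0664 to 0.187).

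The largest change in the other direction was that of AT3G13580, a paralog for L7. Its signal was 355 and 354 in the mutant, against 374 and 556 in Ler, a change of -0.36 (SE 0.23, adjusted p = 0.358) that was not called. The mutant arrays lay below both Ler arrays, which were far apart. Among the 40S members the highest values were those of AT5G07090 (S4), 0.36 (adjusted p = 0.127), and AT3G02560 (S7), 0.32 (adjusted p = 0.134). By subunit the medians were 0.12 for the 60S and 0.14 for the 40S members.

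Markers of the root moved in the same comparison. Of 8 root marker genes 4 were measured, and 3 of them rose in the mutant: AT2G37130 (1.53), AT3G01190 (1.52) and AT5G17820 (0.64), while AT3G09260 gave -0.05 (adjusted p = 0.866). Of all probe sets 4.55% were called higher there. The summed signal of the 4 markers was 3404 and 3867 in the mutant, against 2749 and 2560 in Ler. It was 3248 and 3122 in Ws and 2699 and 3368 in the de-etiolated mutant. None of 7 shoot and 15 cell division markers had a probe set of its own, and the seed storage gene AT3G22640 did not pass the filter on low values. The part of such differences in the change of AT5G48760 was not tested. Fewer cells of a type and less RNA per cell cannot be told apart in whole seedlings.

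**Figure D3:**
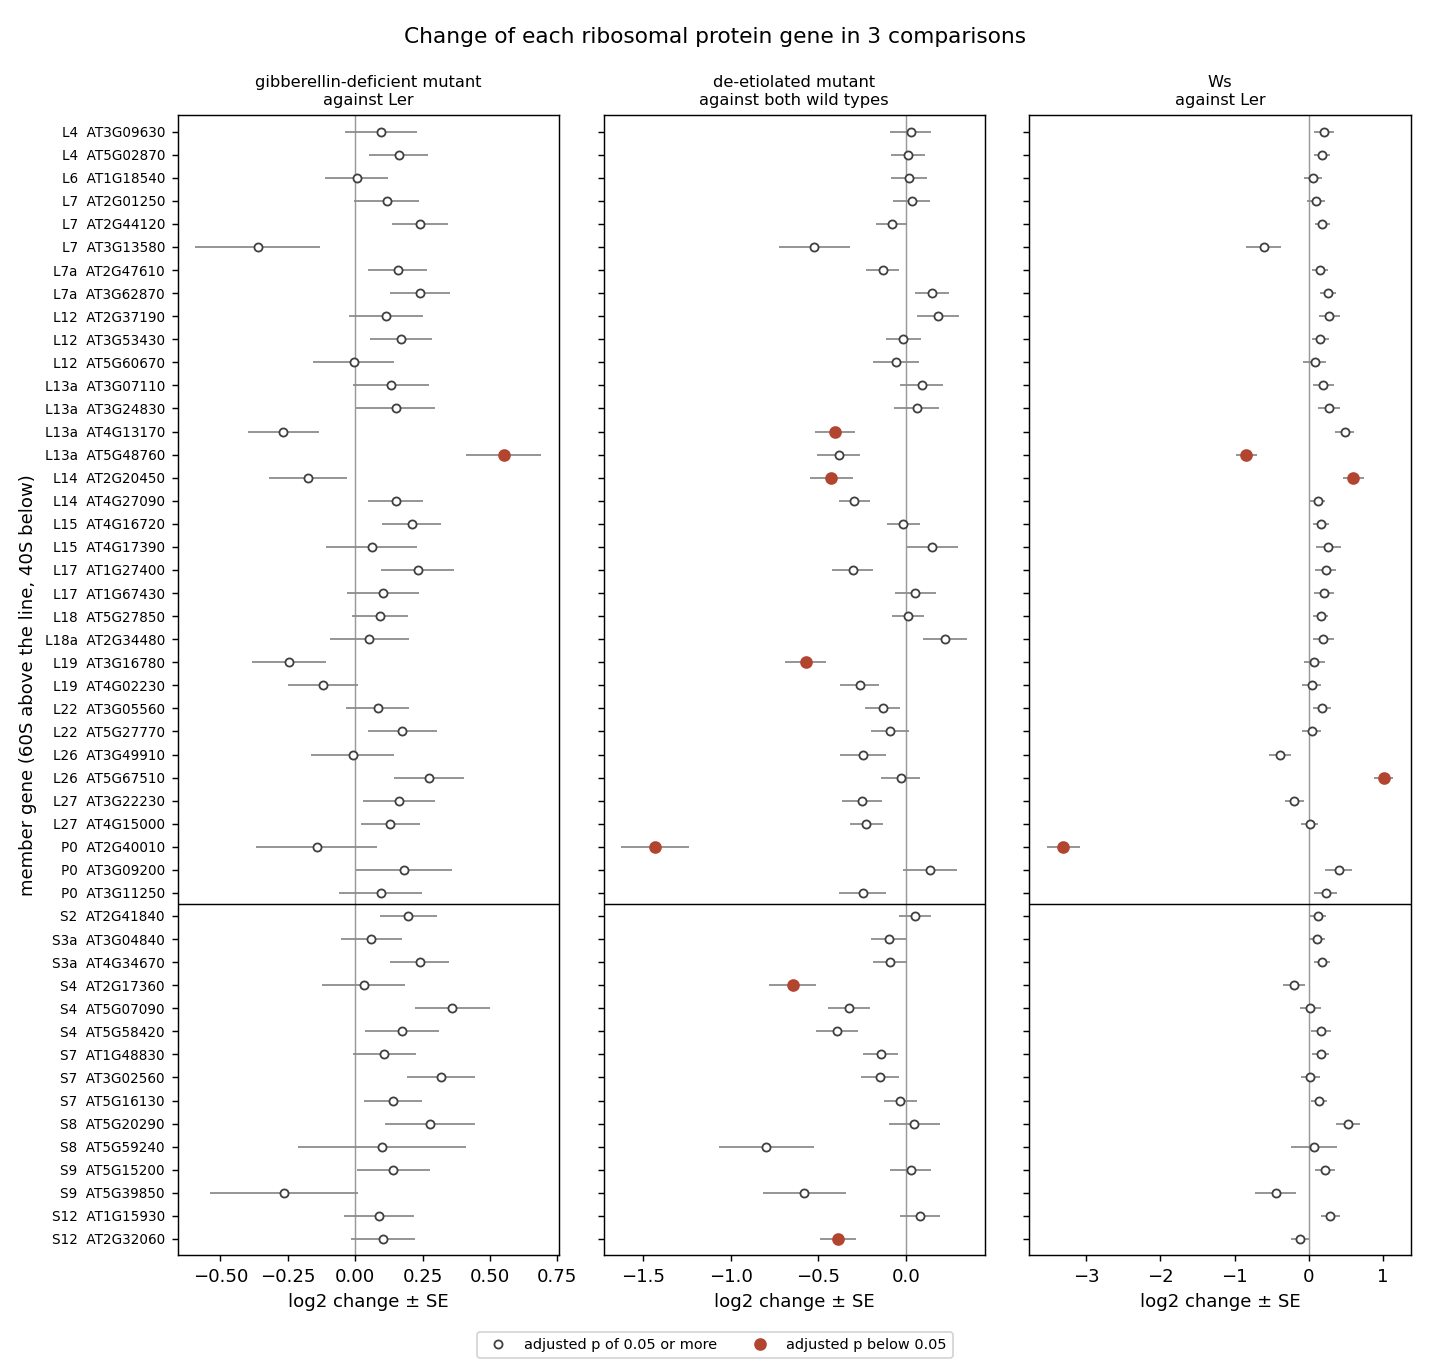
Log2 change of each of the 49 members with its SE (horizontal lines) in 3 comparisons; filled points were called at an adjusted p below 0.05 and each panel has its own scale. There are 1, 6 and 4 filled points in the gibberellin-deficient, de-etiolated and Ws panels.

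Against both wild types averaged, 6 members fell and 0 rose in the de-etiolated mutant, or 12.2%, where 11% of all probe sets were called (5.45% higher and 5.55% lower). At an unadjusted p below 0.05, 17 members were lower and 0 higher, where 13.1% of all probe sets were lower and 13.3% higher. AT2G40010 (P0), which had to differ as said below, is among the 6 and among the 17. Of the 6 members called, 4 belong to the 60S and 2 to the 40S subunit. Those for which every mutant array lay below all wild-type arrays encode S4, L19, L13a and S12. For the other 2, which encode P0 and L14, the mutant's arrays overlapped with the wild types.

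The 40S gene AT2G17360 encodes S4. Its signal was 753 and 643 in the mutant, against 899 and 1156 in Ws and 1102 and 1238 in Ler. It fell by 0.65 on the log2 scale (SE 0.13, adjusted p = 0.0098), which is 1.57-fold lower. Against Ler alone the change was -0.74 (adjusted p = 0.0067), and against Ws alone -0.55 (adjusted p = 0.0882). Both mutant arrays were the lowest of the 8, and the call was lost without de-etiolated replicate 2 (adjusted p = 0.0745). Its paralogs AT5G58420 and AT5G07090 gave -0.39 (adjusted p = 0.053) and -0.32 (adjusted p = 0.111).

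The 60S gene AT3G16780 encodes L19, which takes part in a bridge between the subunits. Its signal was 385 and 457 in the mutant, against 616 and 670 in Ws and 619 and 599 in Ler. The wild types were close to each other and the mutant lay below both, a change of -0.57 (SE 0.12, adjusted p = 0.011). It was the only member called lower against each wild type taken alone, with -0.61 against Ws (adjusted p = 0.0425) and -0.53 against Ler (adjusted p = 0.0215). Without de-etiolated replicate 1 the change was -0.45 and the call was lost (adjusted p = 0.101). In the gibberellin-deficient mutant its signal was 473 and 557, and its change against Ler was -0.25 (adjusted p = 0.288).

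The 40S gene AT2G32060 encodes S12, which in Drosophila is needed for cell competition. Its signal was 1199 and 1148 in the mutant, against 1382 and 1571 in Ws and 1520 and 1681 in Ler. The change was -0.39 (SE 0.10, adjusted p = 0.0326), and the groups did not overlap. The L13a gene AT4G13170 had 646 and 703 in the mutant, against 1013 and 1102 in Ws and 715 and 798 in Ler. Its change of -0.41 (SE 0.11, adjusted p = 0.0412) came mostly from the gap to Ws, since it was -0.16 against Ler alone (adjusted p = 0.446). The L14 gene AT2G20450 had 323 and 346, against 514 and 597 in Ws and 335 and 395 in Ler, a change of -0.42 (SE 0.13, adjusted p = 0.0491). It was -0.73 against Ws alone (adjusted p = 0.0233) and -0.12 against Ler alone (adjusted p = 0.624). The calls of all 3 genes were lost without either de-etiolated array, without Ws replicate 2 or Ler replicate 2, and without either gibberellin-deficient array (adjusted p = 0.0548 to 0.209 over these), and that of AT4G13170 also without Ws replicate 1 (0.056).

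The sixth gene was AT2G40010, a paralog for P0, the protein that anchors the stalk at which translation factors bind. The de-etiolated arrays gave signals of 16.2 and 18.5, against 16.0 and 13 in Ws and 149 and 192 in Ler. The mutant resembled Ws and not Ler, so the change of -1.43 against the mean of both matches neither wild type. It was 0.22 against Ws alone and -3.09 against Ler alone. The means of the de-etiolated mutant and Ws lay below a signal of 24.2, the level of the filter on low values. This gene passed the filter only through the groups of Ler background, so it had to differ. Its changes are given as a description, with no test, and depend on the pseudocount. Without it, 5 of 48 members fell.

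**Figure D4:**
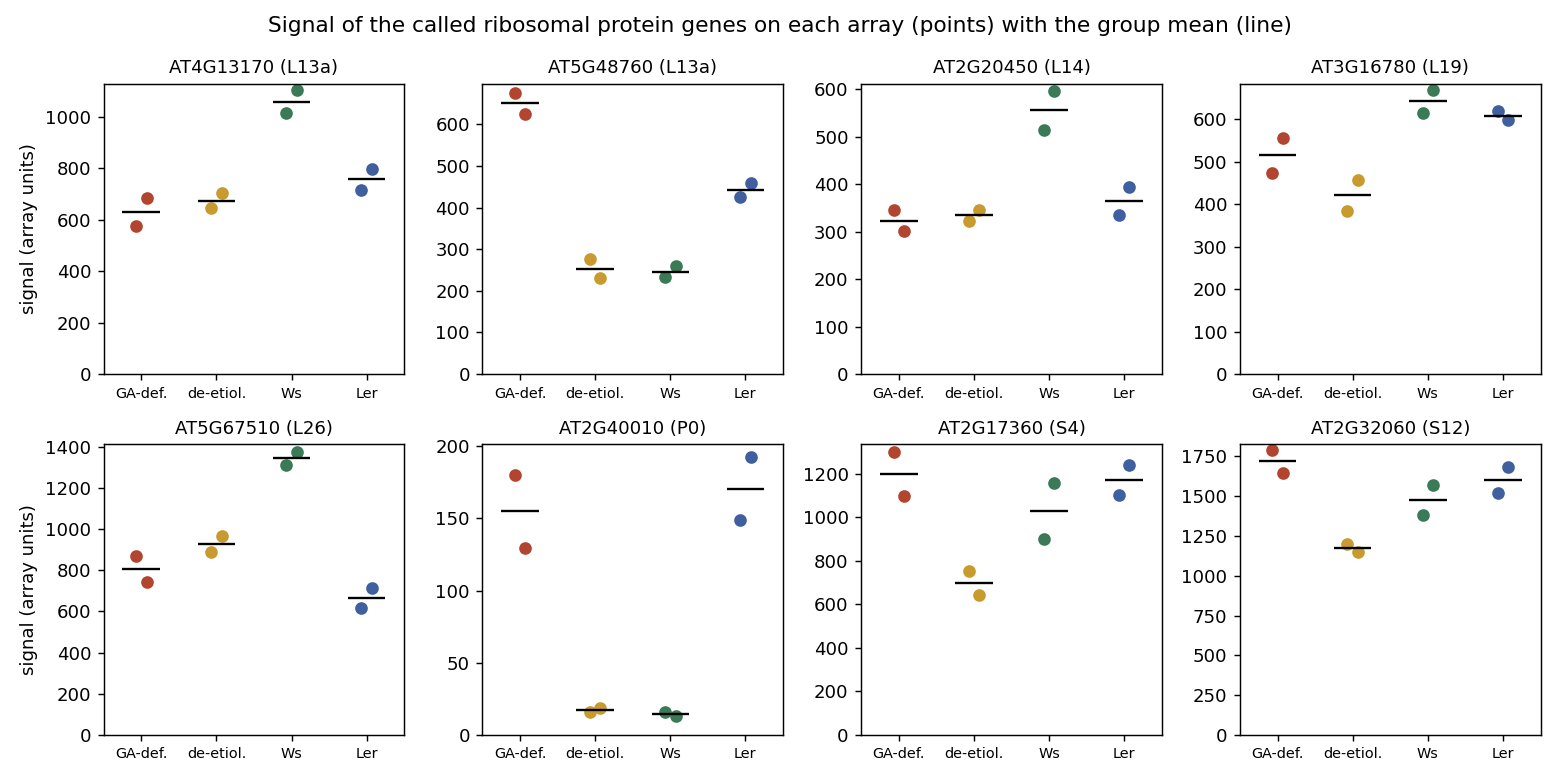
Signal (array units, axis from 0) of the 8 members called in at least 1 comparison, with a point for each array and a line at the group mean. AT3G16780 and AT2G17360 are lowest in the de-etiolated mutant, and AT2G40010 is at 13 to 18.5 in the de-etiolated mutant and Ws.

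The largest value in the other direction was that of AT2G34480, a gene for L18a, with 1884 and 2240 in the de-etiolated mutant, against 2052 and 1728 in Ws and 1808 and 1489 in Ler. The groups overlapped, and the change of 0.22 (SE 0.13, adjusted p = 0.291) was not called. Dimmer members had lower values than bright ones in the mutant. All 13 members with a mean signal below 1000 lay below 0, with a median of -0.41. The 36 brighter ones had a median of -0.01. AT2G40010, which had to differ, is among the 13, and no median was taken over all probe sets below 1000. The split at 1000 was chosen after the values were seen. Among the 13 were AT5G59240 (S8), with 29.9 and 27.4 in the mutant, against 49.1 and 57.8 in Ws and 33.1 and 76.1 in Ler. Its change was -0.80 (SE 0.27, adjusted p = 0.0819). AT5G39850 (S9) had 145 and 149, against 136 and 264 in Ws and 206 and 327 in Ler, a change of -0.58 (SE 0.24, adjusted p = 0.143).

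Taken against each wild type, 6.12% of members were called against Ws and 14.3% against Ler. Of all probe sets, too, fewer were called against Ws. In the de-etiolated mutant against Ws 3 members fell and 0 rose, where 2.24% of all probe sets were called (1.35% higher and 0.894% lower). The members' median was -0.15 with 43 of 49 below 0, beside 0.02 for all probe sets. For the 619 probe sets with a mean signal above 1000 it was -0.02, with 340 below 0. The 36 members above 1000 had a median of -0.09, with 32 below 0. All 15 members of the 40S subunit lay below 0 there, with a median of -0.22. At an unadjusted p below 0.05, 12 of all 49 members were lower and 0 higher, where 8.05% of all probe sets were lower and 8.87% higher. Against Ler 6 members fell and 1 rose, where 15.9% of all probe sets were called (7.83% higher and 8.03% lower). The members' median was -0.04, beside 0.002 for all probe sets and 0.14 for those with a mean signal above 1000. There 13 were lower and 4 higher at an unadjusted p below 0.05, where 15.2% of all probe sets were lower and 14.6% higher. AT2G40010 (P0), which had to differ as said above, is among the 6 and among the 13. Without it, 5 of 48 members fell and 1 rose. The gene that rose against Ler was AT5G67510 (L26), by 0.48 (SE 0.13, adjusted p = 0.0276). AT3G13580 (L7) fell against Ler by 0.82 on the log2 scale (SE 0.23, adjusted p = 0.0317), with 281 and 234 in the mutant, against 374 and 556 in Ler. These comparisons share the mutant's arrays, and single arrays were not left out in them.

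The 2 wild types differ in accession alone, as far as the labels say. In Ws against Ler 2 members rose and 2 fell, or 8.16%, where 5.82% of all probe sets were called (2.71% higher and 3.11% lower). At an unadjusted p below 0.05, 7 were higher and 4 lower, where 8.32% of all probe sets were higher and 9.83% lower. AT2G40010 (P0), which had to differ as said above, is among the 2 that fell and among the 4 lower. Without it, 2 of 48 members rose and 1 fell. AT2G40010 had 16.0 and 13 in Ws, against 149 and 192 in Ler, a change of -3.31 with no test. Its change was -2.65 when the pseudocount was raised to 50% of the median probe set signal. In the gibberellin-deficient mutant, of Ler background, it had 180 and 130, a change of -0.14 against Ler (adjusted p = 0.742). It was therefore high on every array of Ler background and low on the others.

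AT5G48760 (L13a) had 233 and 259 in Ws, against 426 and 460 in Ler, a change of -0.84 (SE 0.14, adjusted p = 0.0040). The de-etiolated mutant, with 277 and 230, lay beside Ws and was -0.81 against Ler (adjusted p = 0.0026). Over all 4 groups this gene was thus highest in the gibberellin-deficient mutant, next in Ler, and lower in the de-etiolated mutant and Ws, whose arrays overlapped. AT5G67510 encodes L26, which lies near the exit of the tunnel for the growing chain. It had 1313 and 1374 in Ws, against 619 and 716 in Ler, a change of 1.01 (SE 0.13, adjusted p = 0.00066), or 2.01-fold. The order of this gene was Ws, the de-etiolated mutant (889 and 964), the gibberellin-deficient mutant (871 and 744) and Ler, with no overlap between neighbours, though the nearest arrays of both mutants were close together.

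AT2G20450 (L14) had 514 and 597 in Ws, against 335 and 395 in Ler, a change of 0.60 (SE 0.14, adjusted p = 0.0305). In the other groups it was at 345 and 301 (gibberellin-deficient) and at 323 and 346 (de-etiolated), which overlapped with Ler, so Ws alone stood apart. Its call was lost without any 1 array of Ws or Ler (adjusted p = 0.051 to 0.185). The calls of AT5G48760 and AT5G67510 held under every alternative tried. The actin ratio given above separates the same groups as AT2G40010 does, and its part in these differences was not tested.

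Paralogs for one protein were compared by the difference between their changes, since signals of different probe sets cannot be set against each other. There were 34 pairs in 19 families. The pairs that differed were 1 in the gibberellin-deficient mutant against Ler (2.94% of pairs), 2 where the de-etiolated mutant was set against both wild types (5.88%), and 6 in Ws against Ler (17.6%). They lay in the families of L13a, P0 and L26, and those called in the same family share a gene. Both pairs of the de-etiolated mutant and 2 of those in Ws hold AT2G40010. Of the 32 pairs without it, 1, 0 and 4 were called in the 3 comparisons, and 2, 6 and 7 at an unadjusted p below 0.05.

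Among the 4 genes for L13a, AT4G13170 and AT5G48760 changed unequally in 2 of the 3 comparisons. AT3G07110 and AT3G24830 gave 0.13 and 0.15 for the gibberellin-deficient mutant, 0.09 and 0.06 for the de-etiolated mutant, and 0.20 and 0.27 for Ws against Ler, none of them called. In the gibberellin-deficient mutant AT4G13170 had 576 and 684, against 715 and 798 in Ler, a change of -0.27 (adjusted p = 0.229), while AT5G48760 rose. The difference between these changes was -0.82 (SE 0.20, adjusted p = 0.0219), and it too was lost without any 1 array of the 2 groups (adjusted p = 0.0511 to 0.200). In Ws against Ler AT4G13170 gave 0.48 (adjusted p = 0.053) and AT5G48760 -0.84, a difference of 1.33 (SE 0.20, adjusted p = 0.0018). In the de-etiolated mutant, set against the wild types together, they gave -0.41 and -0.38, a difference of -0.02 (SE 0.17, adjusted p = 0.956). This average combined differences of opposite sign. Against Ler alone the difference was 0.64 (SE 0.20, adjusted p = 0.0458). Against Ws alone it was -0.68 (SE 0.20, adjusted p = 0.101), which was not called. Against Ler alone the changes of AT3G07110 and AT3G24830 in this mutant also exceeded that of AT5G48760 (adjusted p = 0.0113 and 0.0107). Between the wild types, the change of AT3G24830 in Ws exceeded that of AT5G48760 by 1.11 (adjusted p = 0.0126), and that of AT3G07110 did so by 1.04 (adjusted p = 0.0181). These last calls were lost without Ws replicate 1 (adjusted p = 0.114 and 0.156) and without Ler replicate 2 (0.0974 and 0.142).

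The 2 genes for L26 ran in opposite directions between the wild types. AT3G49910 had 1165 and 1160 in Ws, against 1687 and 1370 in Ler, a change of -0.39 (adjusted p = 0.195), where AT5G67510 rose by 1.01. The difference was -1.40 (SE 0.20, adjusted p = 0.0014), and the arrays of both groups were apart on it. The de-etiolated mutant showed the same against Ler, with -0.44 for AT3G49910 (960 and 1310) and 0.48 for AT5G67510, a difference of -0.91 (adjusted p = 0.0096). That comparison shares the Ler arrays.

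Of the P0 genes, AT2G40010 is described above. AT3G09200 had 1766 and 1498 on the gibberellin-deficient arrays, 1494 and 2209 on the de-etiolated, 2091 and 1727 on the Ws and 1564 and 1316 on the Ler arrays. None of its changes was called (0.14 to 0.40 in the 3 comparisons). AT3G11250 had 236 and 259 on the gibberellin-deficient arrays, 227 and 196 on the de-etiolated, 301 and 245 on the Ws and 220 and 244 on the Ler arrays, again with no call. In Ws against Ler the change of AT2G40010 minus theirs was -3.71 and -3.54. For the de-etiolated mutant against the wild types averaged it was -1.57 and -1.19. These are descriptions with no test, since AT2G40010 had to differ, and they rest on Ler and not on Ws.

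**Figure D5:**
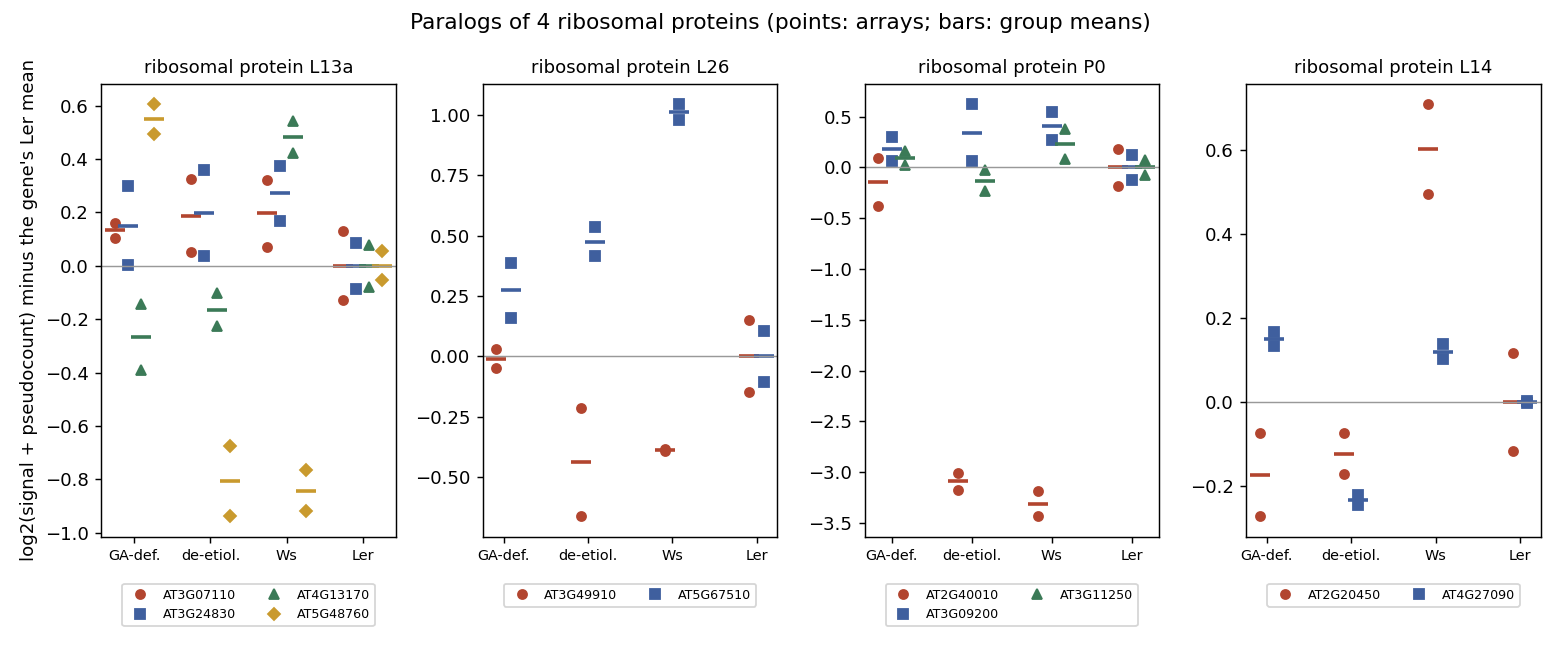
Log2(signal + 2.96) minus the gene's Ler mean for the paralogs of L13a, L26, P0 and L14 (points: arrays; short bars: group means; panels have their own scales). AT5G48760 and AT4G13170 lie on opposite sides of 0 in the gibberellin-deficient mutant (0.55 and -0.27) and in Ws (-0.84 and 0.48).

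In the other families no pair was called in these 3 comparisons. For L4, which lines the tunnel of the growing chain, the 2 genes gave 0.10 and 0.16 for the gibberellin-deficient mutant, 0.03 and 0.01 for the de-etiolated mutant, and 0.21 and 0.18 for Ws against Ler. For L14 the difference between paralogs was largest in Ws against Ler, where AT4G27090 gave 0.12 (adjusted p = 0.604) beside 0.60 for AT2G20450, and this pair was not called. In the de-etiolated mutant AT4G27090 gave -0.29 (adjusted p = 0.0552), with 1677 and 1650, against 2100 and 2154 in Ws and 1961 and 1953 in Ler. The arrays did not overlap, but the change missed the threshold. The L19 gene AT4G02230 gave -0.26 beside -0.57 for AT3G16780, and the S12 gene AT1G15930 gave 0.08 beside -0.39 for AT2G32060, with neither pair called. Against Ler alone the changes in the de-etiolated mutant did differ, by 0.67 for AT1G15930 minus AT2G32060 (SE 0.19, adjusted p = 0.0353) and, among the L7 genes, by 0.84 for AT2G44120 minus AT3G13580 (SE 0.26, adjusted p = 0.0492). The 3 genes for S7 lay between -0.15 and -0.03 in the de-etiolated mutant and between 0.11 and 0.32 in the gibberellin-deficient mutant. A missed threshold with 2 arrays a group does not show that paralogs act alike: the median SE of a member's change was 0.13 in the comparisons of 2 groups.

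Other genes of the ribosome and its assembly were taken as lists, chosen with earlier results of these data known. Of 144 further cytosolic ribosomal protein genes 61 had a probe set of their own and 56 were tested. In the de-etiolated mutant 8 of them fell and 0 rose, with a median of -0.23 and 49 of 56 below 0, where 5.55% of all probe sets fell and 5.45% rose. The largest falls were AT2G32220 (-0.67), AT5G02610 (-0.65), AT3G14600 (-0.64) and AT1G26880 (-0.48). These values are against both wild types averaged. Against Ws alone 1 fell and 0 rose, with 53 of 56 below 0, where 0.894% of all probe sets fell. Against Ler alone 6 fell and 1 rose, with 39 of 56 below 0, where 8.03% of all probe sets fell and 7.83% rose. In the gibberellin-deficient mutant 1 of the 56 fell (AT4G26230, -0.56), where 6.18% of all probe sets fell. In Ws against Ler 2 rose (AT3G57490, 1.20, and AT3G28900, 0.69), where 2.71% of all probe sets rose. The medians of the 56 genes there, 0.11 and 0.15, were close to those of the 49 members, and in the de-etiolated mutant their median was lower.

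Among 9 genes for the acidic proteins of the stalk, which P0 holds, 1 fell in the de-etiolated mutant (AT3G44590, -0.45), where 5.55% of all probe sets fell. No other call was made among them in the 3 comparisons. Of 11 genes for ribosome assembly tested 3 fell in the gibberellin-deficient mutant: AT5G66540 (-1.04), AT2G40430 (-0.89) and AT4G02400 (-0.71), where 6.18% of all probe sets fell. In the de-etiolated mutant 3 fell too: REBELOTE (RBL, -0.91), AT2G40430 (-0.80) and AT4G02400 (-0.68), where 5.55% of all probe sets fell. The 2 genes that fell in both mutants did so against control arrays that the comparisons share in part. In Ws against Ler their changes lay between -0.44 and 0.43, with no call. Of 5 nuclear genes for plastid ribosomal proteins 1 rose in the de-etiolated mutant (AT4G01310, 0.35), where 5.45% of all probe sets rose. Of 4 translation factor genes 1 rose in the gibberellin-deficient mutant (AT4G27130, 0.56), where 4.55% of all probe sets rose. The 1 gene measured for growth control of ribosomes, AT3G08850, was not called in any comparison (0.10, -0.01 and -0.26).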

How the data were processed

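For every probe set the deposited table gives 1 intensity on each array, made by the authors with MAS5, per the submitters' processing notes; other settings are not given in the sources used here. Columns were matched to samples by identifier and groups taken from the labels. Gene names came from the array annotation, matched to the gene table through its gene identifiers.

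The scale was log2(signal + 2.96). The pseudocount is 10% of 29.6, the median over probe sets that name 1 gene, and understates the change of dim genes. The 64 array controls and the lowest 40% of probe sets by mean were left out. The remaining 13648, all 49 members among them, entered 1 limma fit of 4 groups (lmFit, contrasts.fit, eBayes with trend; 4 residual degrees of freedom), with two-sided tests. The median SE was 0.197 over all probe sets for 2 groups; the number of arrays limits the precision. Paralog differences were fitted per array, with the variance moderated by the sum of both probe sets' prior variances, and p adjusted over probe sets and pairs together.

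Members and lists were chosen with earlier results of these data known. Named were all called members, both genes of each called pair, the largest rise and fall of each comparison, and up to 4 called genes per list and comparison; other members named were chosen after their values were seen. Alternatives covered normalization, pseudocount, filter, trend, threshold, arrays in the fit, control group, the replicate letter as a block, and each array left out. The steps were tested on simulated data. No promoter or protein sequences were used here. Tests ran in limma 3.58.1 under R 4.3.3. Figures were drawn with matplotlib 3.10.9, pandas 2.3.3 and numpy 2.4.6 under Python 3.11.15.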

Additional observations from a re-analysis of the deposited data

Results flagged for a closer look

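The array carries a control probe set for 25S ribosomal RNA, the RNA of the large subunit, which entered no comparison. Its signal was 69.7 and 39.6 in the gibberellin-deficient mutant and 108 and 62.4 in the de-etiolated mutant, each above all 4 wild-type arrays, which gave 32.0 and 22.2 in Ws and 30.3 and 26 in Ler. The difference was not tested, nor was its part in the values of the ribosomal protein genes.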

How the results depend on the processing

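With quantile normalization the members' median change was 0.0257 in the gibberellin-deficient mutant and 0.0117 in Ws against Ler. The number of members called in the de-etiolated mutant, 6 as reported, was 3 with no filter, 3 without the trend, 2 at a threshold of 0.01, 3 from the arrays compared alone and 3 with Ws alone as control. It was 2 to 8 over single arrays left out, and 2 without either de-etiolated array. In the gibberellin-deficient mutant the count of 1 was 0 without the trend, 0 at a threshold of 0.01, and 0 to 1 over single arrays left out. In Ws against Ler the count of 4 was 3 to 5. AT2G40010, which had to differ, is in each count for the de-etiolated mutant and Ws against Ler, except with Ws alone as control. The change of AT2G40010 in the de-etiolated mutant turned to 0.22 with Ws alone as control, because the mutant's signal is close to that of Ws and far from that of Ler; the cause of the other shifts was not tested. The called pairs, 9 in all and 4 of them with AT2G40010, were 6 to 10 over single arrays left out. A fit with the replicate letter as a block gave 1, 8 and 5 called members in the gibberellin-deficient mutant, the de-etiolated mutant and Ws against Ler, and 9 pairs. Whether arrays of the same letter pair was not tested. Their deviations from the group means correlated at -0.03 to 0.14 between groups over all probe sets. Over the 49 members the range was from -0.57 (de-etiolated mutant with Ler) to 0.62 (Ws with Ler). With a pseudocount of 50% or arrays scaled to a common median, every count stayed within 1.5 times that reported. No member had a probe set whose name marks cross-hybridisation, or more than 1 probe set, so no alternative was run for either. Whether probe sets of similar paralogs cross-hybridise was not tested. With 2 arrays a group and a median SE of 0.13, small changes of single genes could not be detected.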
